A study of Mus musculus with 24 samples.

Results

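The nucleolar remodeling complex NoRC and other factors that silence rRNA genes were followed through 9 genes, Baz2a, Smarca5, Baz2b, Ttf1, Dhx9, Parp1, Hdac1, Sirt7 and Kdm2a, among the 21909 gene symbols of the RNAseq tables. The genes were listed by name for their known roles, at a time when earlier results of these data were known. All 9 were found in the tables of both cell types. The study maps contacts between chromosomes and the nucleolus in mouse ESCs (embryonic stem cells) and in NPCs, the neural progenitors derived from them, and comprises 24 samples. Of these, the 6 RNAseq samples were used here, 3 of ESCs and 3 of NPCs, together with 1 list of nucleolar associated domains (NADs) for each cell type. The NADs were mapped in separate transgenic ESC lines and in NPCs derived from them. These lines express the DNA methyltransferase Dam fused to histone H2B, with or without a nucleolar signal (H2B-Dam-NoLS and H2B-Dam). Expression was induced with doxycycline and Shield1. The ESCs of the RNAseq were untreated cells of the E14 line, grown without feeder cells and serum. Their medium held LIF (1000 U/ml) and the inhibitors CHIR99021 (3 µM) and PD0325901 (1 µM). NPCs were derived from E14 cells over 8 days as embryoid bodies in medium with fetal calf serum, with 2 µM retinoic acid during the last 4 days. Medium, serum, retinoic acid and cell type therefore differ together and cannot be told apart. The study describes the RNAseq as done in 3 replicates, and both groups derive from a single cell line.

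Ribosomal RNA genes are present in many copies, of which some are transcribed and others are packed into silent heterochromatin. NoRC consists of TIP5, the product of Baz2a, and the ATPase SNF2H, the product of Smarca5. It is brought to the rRNA gene promoter by the terminator-binding protein TTF1, needs the binding of a short noncoding RNA called pRNA to TIP5, and recruits histone deacetylases and DNA methyltransferases. In ESCs, where processing of the precursor of pRNA is impaired, rRNA genes are known to be largely free of this heterochromatin, which is established upon differentiation.

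Expression values were RPKM, which normally scale reads by transcript length. Here the deposited RPKM multiplied by the length of the whole gene body, introns included, were whole multiples of 1 read for 94.3% to 94.6% of low values (under 100 reads, within 0.02 of a whole read), against 8.12% to 8.49% with the summed exon length. The RPKM were thus per kilobase of gene body, and levels of different genes are compared below as exon-scaled RPKM, with the summed exon length in place of the gene body. The reads recovered in this way gave depths of 34044907, 33725620 and 30773480 reads in ESC replicates 1, 2 and 3 and of 30145217, 27257502 and 32291195 reads in NPC replicates 1, 2 and 3. The 9 genes together held between 52432 and 110873 reads per sample, and single genes between 444 reads (Sirt7 in NPC replicate 2) and 29478 reads (Dhx9 in ESC replicate 1), so that counting error weighs more on Sirt7 than on the others.

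Markers of both cell types were examined first. Sums over their genes and the most abundant gene of each list are given in exon-scaled RPKM. The sum of 8 ESC markers, of which Dppa5a was the most abundant in ESCs, was 3661, 3645 and 6974 in ESC replicates 1, 2 and 3 against 5.09, 4.36 and 4.48 in the NPC samples. That of 8 NPC markers was 81.8, 85.2 and 99.0 in ESCs and 213, 227 and 236 in NPCs, with Vim as the most abundant gene in both. The radial glia marker Pax6, which stood at 0.0134, 0.0167 and 0.00457 RPKM in ESCs, reached 1.55, 1.42 and 1.67 RPKM in NPCs, and Hes5 was listed at 0 in every ESC sample. The NPC samples also carried RNA of other lineages. Mesoderm and mesenchyme markers (9 genes) summed to 4.27, 4.46 and 3.77 in ESCs and to 239.97, 249.6 and 240.1 in NPCs, with Col3a1 as the most abundant gene in NPCs and T in ESCs, and Foxf1 at 0 in all ESC samples. Endoderm markers (7 genes) summed to 0.962, 1.06 and 0.625 in ESCs and to 152.9, 156.8 and 158.3 in NPCs, led by Gata4 in both, with Afp and Ttr at 0 in ESCs. Neuron markers (7 genes) summed to 81.0, 87.0 and 106.6 in ESCs and to 44.9, 37.1 and 44.0 in NPCs, led in the mean by Stmn2 in ESCs and by Tubb3 in NPCs, with Dcx at 0 in all ESC samples. Neural crest markers (5 genes) summed to 10.96, 11.4 and 9.38 in ESCs and to 27.2, 23.7 and 23.4 in NPCs, led by Foxd3 in ESCs and Ets1 in NPCs, with none at 0 in all ESC samples and Sox10 at 0 in ESC replicate 2. Per kilobase of gene body, which for Ets1 is 121.6 kb long, their sum ran the other way, with 8.47, 8.93 and 7.65 in ESCs and 6.60, 5.88 and 5.99 in NPCs. A filter on low values admits a marker that is near 0 in one cell type only where it is high in the other, so that the counts of markers that differ are descriptions. They are given in recovered reads with limma, whose filter is the more lenient, and apart from Vim they were the same without ESC replicate 3. All 8 ESC markers were lower in NPCs, and 7 of 8 NPC markers were higher (8, with Vim, without ESC replicate 3). Of 8 mesoderm and mesenchyme markers tested, 7 were higher and 1, T, was lower, from 0.964, 1.04 and 0.869 RPKM in ESCs to 0.0164, 0.00909 and 0.0115 in NPCs. Of 6 endoderm markers, 6 were higher. Of 7 neuron markers, 5 were higher (Dcx, Rbfox3, Elavl3, Map2 and Neurod1) and 2 lower (Tubb3 and Stmn2), and of 5 neural crest markers 3 were higher (Ets1, Snai2 and Sox10) and 2 lower (Foxd3 and Tfap2a). The part of these other lineages in the values of the silencing factors was not tested. In these bulk samples, fewer cells of a type and less RNA per cell cannot be told apart.

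ESC replicate 3 stood apart from the other samples. Its genes differed from ESC replicates 1 and 2 by a median of 0.52 and 0.50 on the log2 scale in either direction, whereas the other pairs of replicates differed by 0.06 to 0.10. The difference followed transcript length. In 10 bins of 14657 genes ordered by their longest transcript, the median of ESC replicate 3 minus the mean of replicates 1 and 2 was 0.71 in the bin of the shortest and -1.10 in that of the longest transcripts, and across genes, which are not independent replicates, Spearman's rho with length was -0.61. In NPC replicate 3 the same correlation was -0.02. The 9 genes followed length only in part: on this scale Baz2a differed by -1.76, Kdm2a by -1.54, Baz2b by -1.51 and Dhx9 by -1.26, while Ttf1 (-0.65), Parp1 (-0.52), Smarca5 (-0.14), Hdac1 (-0.07) and Sirt7 (0.18) differed less, although the longest transcripts of Smarca5 (6.11 kb) and Ttf1 (5.34 kb) are longer than that of Dhx9 (4.62 kb). The gap was larger than the median of the same length bin for Baz2a, Kdm2a and Baz2b (-1.10), Dhx9 (-0.57) and Parp1 (-0.27), smaller for Smarca5 and Ttf1 (-0.79), and on the other side of 0 from the median for Hdac1 (0.18) and Sirt7 (-0.13). Fold changes, ratios and counts over gene lists are therefore given below with and without ESC replicate 3. Transcript length also moved with cell type, since the median of NPCs minus ESC replicates 1 and 2 went from -0.35 in the bin of the shortest to 0.84 in that of the longest transcripts.

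**Figure D1:**
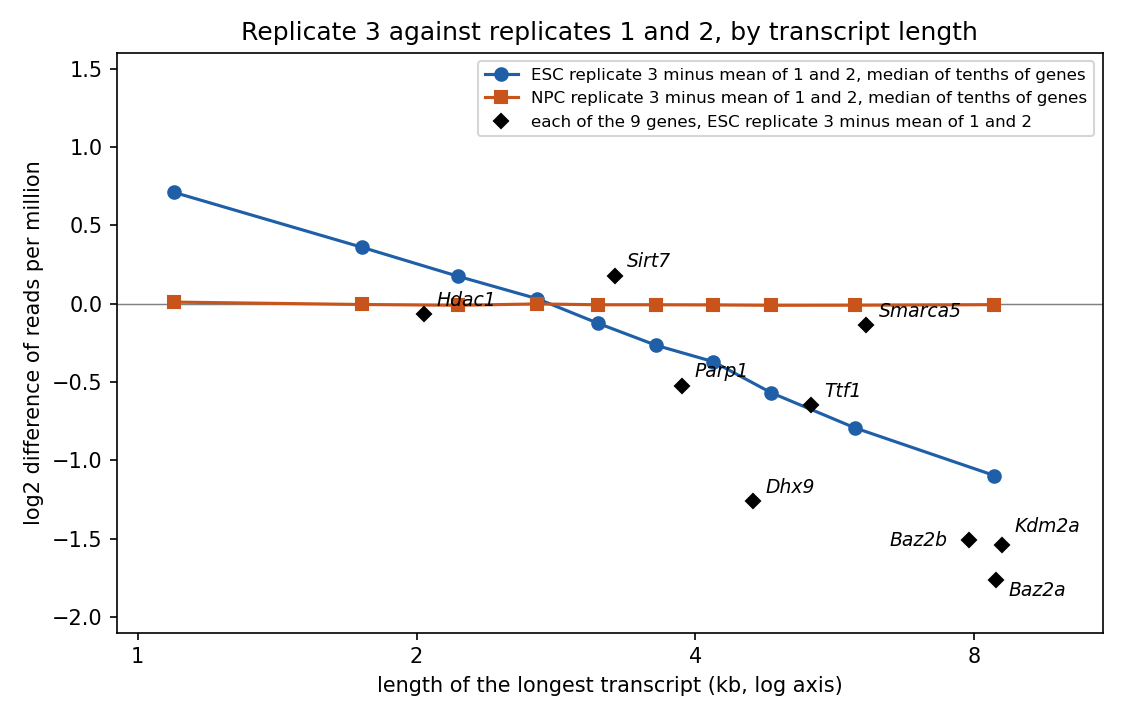
Log2 difference of depth-scaled reads between replicate 3 and the mean of replicates 1 and 2 (vertical axis) against the length of the longest transcript in kb (horizontal log axis), with medians of 10 length bins of 14657 genes for ESCs (circles) and NPCs (squares) and the 9 genes in ESCs as diamonds. The ESC medians go from 0.71 to -1.10 with length, the NPC medians stay near 0, and Baz2a, at -1.76, is the lowest of the 9 genes.

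NPCs were compared with ESCs to ask how the silencing factors change upon differentiation. Genes were tested with limma on log2(RPKM + 1), a scale that understates changes of genes with low RPKM, and 7835 genes with an RPKM of at least 1 in at least 3 samples entered the fit. Of the 9 genes, 8 passed this filter, and Baz2b did not. Hdac1, Parp1, Smarca5 and Sirt7 were lower in NPCs (4 of 8, where 33.3% of all tested genes were lower) and Kdm2a was higher (1 of 8, against 36.9%), which makes 5 of 8 called in either direction against 70.2% of all tested genes. Without ESC replicate 3, all 8 were called, 7 lower and 1 higher, against 87.9% of all tested genes (44.0% lower and 43.9% higher). In recovered reads, where all 9 were tested with limma voom as a further setting added once the values were known, 5 were lower and 2 higher, 7 of 9 against 74.0% of all genes (28.1% lower and 45.8% higher), and 7 were lower and 2 higher without ESC replicate 3, against 88.2% (36.6% lower and 51.6% higher). With the trend over transcript length removed from each sample, 7 of 9 were lower and 0 higher, against 81.3% of all genes in either direction (42.3% lower and 39.0% higher). The log2 fold changes were then -2.55 for Baz2a, -1.71 for Smarca5, -1.35 for Ttf1, -0.92 for Dhx9, -1.35 for Parp1, -1.29 for Hdac1 and -1.05 for Sirt7, beside a median of -0.08 over all genes. This setting also takes out the difference of NPCs from ESC replicates 1 and 2 over length. Its median was 0.84 in the length bin of Baz2a, 0.79 in that of Smarca5 and Ttf1 and 0.53 in that of Dhx9. The falls of genes with long transcripts are thus larger in this setting. Whether that trend belongs to the cell types or to the libraries was not tested. The share of called members in either direction was thus near the background in the first fit. The median log2 fold change of the 8 was -0.54, beside 0.02 for all tested genes, and -0.58 beside -0.0016 without ESC replicate 3. RPKM of the groups did not overlap for 5 of 8 in the lower direction (38.4% of all tested genes) and for 1 of 8 in the higher direction (41.6%).

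**Figure D2:**
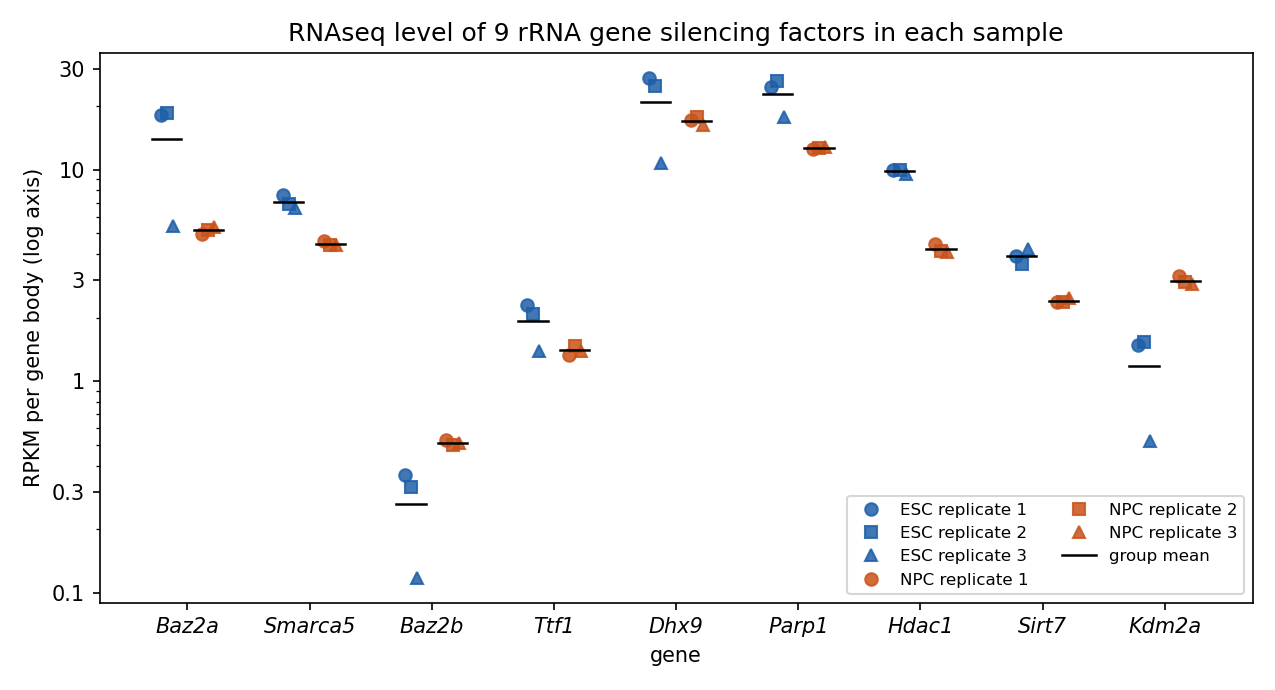
RPKM of each of the 9 genes (vertical log axis, per kilobase of gene body) in the 3 ESC samples (blue) and the 3 NPC samples (orange), with marker shapes for replicates and lines for group means. ESC replicate 3 (blue triangles) lies apart from the other ESC samples for Baz2a, Baz2b, Dhx9 and Kdm2a, where Baz2a stands at 5.41 against 18.2 and 18.5.

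Baz2a encodes TIP5, the large subunit that binds pRNA and anchors NoRC to chromatin. Its RPKM was 18.2, 18.5 and 5.41 in ESC replicates 1, 2 and 3 and 4.99, 5.21 and 5.35 in NPCs. ESC replicates 1 and 2 were high, and ESC replicate 3 lay just above the highest NPC sample. Over all 6 samples Baz2a did not pass the threshold (log2 fold change -1.11, SE 0.43, limma adjusted p = 0.0542). Without ESC replicate 3 it was lower in NPCs by 3.54-fold in mean RPKM (log2 fold change -1.65, SE 0.04, limma adjusted p = 4.64e-08). In recovered reads the log2 fold change was -1.23 (limma adjusted p = 0.0435) with and -1.82 (adjusted p = 5.34e-11) without that library, beside medians of 0.38 and 0.27 over all genes. Over all 6 samples Baz2a was also called with median ratio scaling (-1.16, limma adjusted p = 0.0393) and with the length trend removed (adjusted p = 6.08e-06). Across the alternatives tried, its adjusted p ranged from 2.67e-11 to 0.259, and every log2 fold change was below 0.

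Smarca5 encodes SNF2H, the ATPase of NoRC and of other ISWI complexes. RPKM stood at 7.59, 6.86 and 6.56 in ESCs and at 4.58, 4.43 and 4.39 in NPCs. Every ESC sample, replicate 3 included, was above every NPC sample. The mean fell from 7.01 ± 0.532 to 4.47 ± 0.101 (SD, n = 3 each), a log2 fold change of -0.55 (SE 0.08, limma adjusted p = 0.00112), and of -0.59 without ESC replicate 3. The call was lost when each sample was scaled to a common sum of RPKM (log2 fold change -0.22, limma adjusted p = 0.306), a scaling that moved the median of all tested genes to 0.45, and the adjusted p over all alternatives ran from 7.61e-10 to 0.306. The GENCODE annotation holds a processed pseudogene of this gene, Smarca5-ps, so that reads shared with it are uncertain. An exon of Smarca5 also overlaps one of Gm45872 on the same strand, and reads of that stretch are uncertain too.

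Baz2b encodes a bromodomain protein of the same family as TIP5. Because its gene body of 310.5 kb enters the denominator, RPKM were low, at 0.359, 0.316 and 0.118 in ESCs and 0.531, 0.4997 and 0.510 in NPCs, although 1130 to 5110 reads fell on the gene in each sample. All NPC samples were above all ESC samples. On log2(RPKM + 1) without the filter, the log2 fold change was 0.26 (limma adjusted p = 0.0294), and 0.18 without ESC replicate 3. In recovered reads Baz2b was higher in NPCs (log2 fold change 1.11, SE 0.41, limma adjusted p = 0.0432), and by 0.61 (adjusted p = 2.73e-06) without ESC replicate 3. The call was lost with median ratio scaling of the reads (0.73, limma adjusted p = 0.0839). It was also lost when any 1 of the NPC replicates was left out (1.09 to 1.13, adjusted p = 0.0951 to 0.113). With the trend over transcript length removed from each sample, the sign turned (log2 fold change -0.15, limma adjusted p = 0.278, and -0.26 with adjusted p = 0.000862 without ESC replicate 3). The adjusted p over all alternatives ran from 2.73e-06 to 0.278. Genes of its length bin had a median of 0.84 in NPCs minus ESC replicates 1 and 2, above its own 0.61.

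TTF1 binds terminator elements of rRNA genes and recruits NoRC to the promoter. Ttf1 had 2.295, 2.09 and 1.396 RPKM in ESCs and 1.34, 1.47 and 1.396 in NPCs. ESC replicate 3 lay within the NPC range, and the groups overlapped. The log2 fold change was -0.27 (SE 0.12, limma adjusted p = 0.0898) over all samples and -0.41 (SE 0.04, adjusted p = 6.94e-05) without ESC replicate 3. Over all 6 samples it was called with median ratio scaling (-0.30, limma adjusted p = 0.0413), quantile normalization (-0.53, adjusted p = 0.00119) and the length trend removed (-1.35, adjusted p = 7.42e-06). With samples scaled to a common sum, the log2 fold change of Ttf1 was -0.0068 and not called. Its limma adjusted p was then 0.984, the highest of the alternatives, whose lowest was 1.44e-08.

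DHX9 is an RNA helicase that takes part in the maturation of pRNA from its longer precursor. For Dhx9, RPKM were 27.1, 24.8 and 10.8 in ESCs and 17.2, 17.8 and 16.2 in NPCs. The NPC samples lay between ESC replicate 3, the lowest of all 6 samples, and the other ESC samples. On log2(RPKM + 1) no difference passed the threshold over all samples (log2 fold change -0.18, 95% interval -0.97 to 0.61, limma adjusted p = 0.637), whereas without ESC replicate 3 Dhx9 was lower in NPCs (log2 fold change -0.58, adjusted p = 6.18e-05). With the length trend removed, Dhx9 was lower over all 6 samples too (-0.92, limma adjusted p = 0.00402). The sign turned to 0.24 with samples scaled to a common sum and to 0.06 with quantile normalization, neither of them called, and the adjusted p over all alternatives ran from 5.47e-09 to 0.992.

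PARP1 adds ADP-ribose chains to proteins and binds TIP5 at silent rRNA genes. Parp1 reached 24.7, 26.3 and 17.7 RPKM in ESCs and 12.6, 12.7 and 12.9 RPKM in NPCs. ESC replicate 3 was the lowest of its group, and no ESC sample came down to the NPC range. The log2 fold change was -0.78 (SE 0.16, limma adjusted p = 0.00425), and -0.95 (adjusted p = 9.29e-07) without ESC replicate 3. Scaling to a common sum (log2 fold change -0.40, limma adjusted p = 0.217) and quantile normalization (-0.52, adjusted p = 0.0569) ended the call. The adjusted p over all alternatives ranged from 6.31e-10 to 0.217.

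HDAC1 removes acetyl groups from histones and acts in the co-repressor complex that NoRC recruits. Hdac1 was measured at 10.00, 9.99 and 9.54 RPKM in ESCs and at 4.46, 4.13 and 4.08 RPKM in NPCs. The ESC samples, replicate 3 included, were close to each other and far above the NPC samples. The mean of ESCs was 2.33 times that of NPCs (log2 fold change -1.05, SE 0.08, limma adjusted p = 3.02e-05), and the log2 fold change without ESC replicate 3 was -1.07. Among the 8 tested genes, Hdac1 alone was called under each of its 28 alternatives, with adjusted p from 1.71e-09 to 0.00494.

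SIRT7 is a deacetylase of the sirtuin family that resides in the nucleolus. Sirt7 showed 3.89, 3.59 and 4.23 RPKM in ESCs and 2.37, 2.37 and 2.47 RPKM in NPCs. The groups did not overlap, and here ESC replicate 3 was the highest sample. The log2 fold change was -0.52 (SE 0.08, limma adjusted p = 0.00105) and -0.48 without ESC replicate 3, and it was not called after scaling to a common sum (-0.26, adjusted p = 0.103, the highest of its alternatives, whose lowest was 7.10e-07). An exon of Sirt7 overlaps one of Mafg on the same strand, so that reads of the shared stretch are uncertain.

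KDM2A demethylates histone H3 at lysine 36 and lowers rRNA transcription when nutrients are scarce. Kdm2a rose from 1.49, 1.53 and 0.520 RPKM in ESCs to 3.15, 2.93 and 2.89 RPKM in NPCs. Every NPC sample was above every ESC sample, and ESC replicate 3 was the lowest. The log2 fold change was 0.91 (SE 0.20, limma adjusted p = 0.00659), 0.67 (adjusted p = 3.48e-06) without ESC replicate 3, and 1.498 and 0.98 in recovered reads with and without it. With the length trend removed, Kdm2a was not called (log2 fold change 0.18, limma adjusted p = 0.1996, the highest of its alternatives, whose lowest was 1.43e-08). In NPCs minus ESC replicates 1 and 2 it differed by 0.98, beside a median of 0.84 for genes of its length bin, whereas Baz2a, in the same bin, differed by -1.82.

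**Figure D3:**
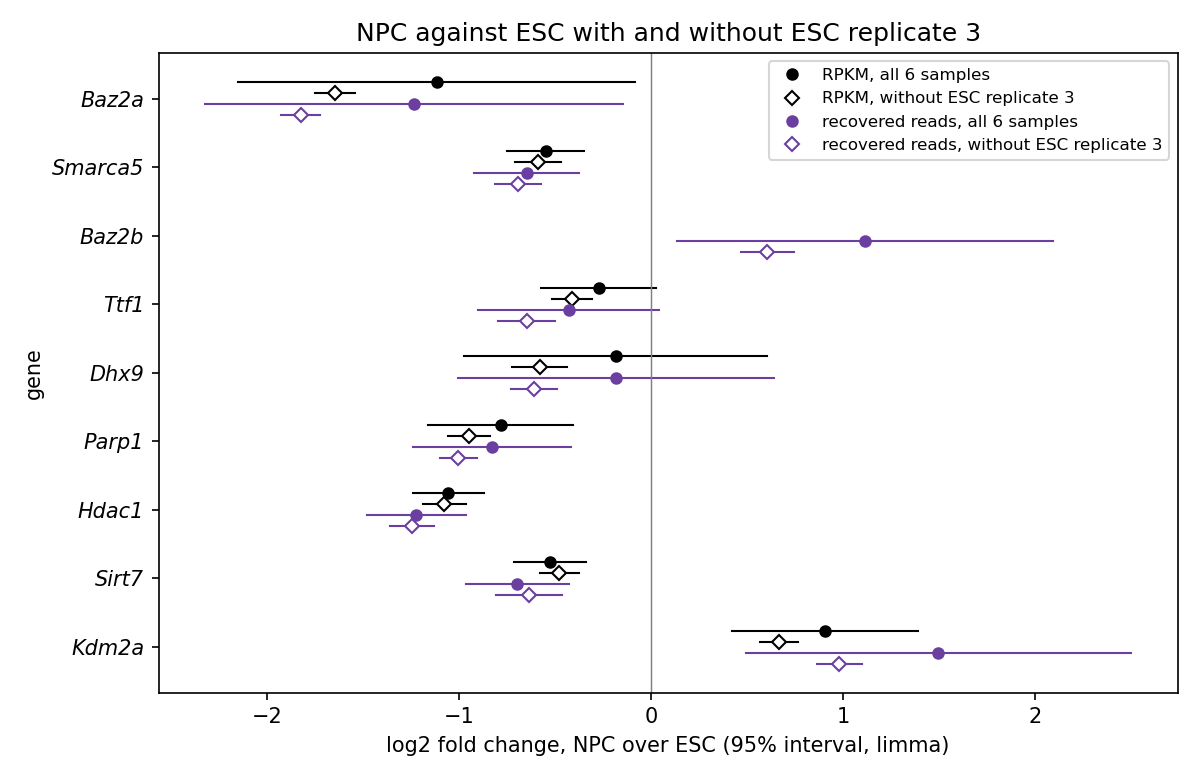
Log2 fold change of NPCs over ESCs with 95% intervals from limma for each of the 9 genes, on log2(RPKM + 1) (black) and in recovered reads (purple), over all 6 samples (filled circles) and without ESC replicate 3 (open diamonds). Leaving out that library narrows the intervals of Baz2a and Dhx9, whose log2 fold changes on the RPKM scale move from -1.11 to -1.65 and from -0.18 to -0.58, and Baz2b has values in recovered reads only.

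On the scale of exon-scaled RPKM, Parp1 was the most abundant of the 9 in both cell types, with 139.9 ± 27.8 in ESCs and 77.7 ± 0.935 in NPCs (SD, n = 3 each). In ESCs it was followed by Hdac1 (76.0 ± 2.05), Dhx9 (69.5 ± 29.3), Baz2a (49.4 ± 26.3) and Smarca5 (36.9 ± 2.80), of which neighbours did not differ beyond their spread. With ESC replicates 1 and 2 alone, Dhx9 (86.3) stood above Hdac1 (77.2) and Baz2a (64.5) above Smarca5 (38.1). The other genes in ESCs lay between 8.77 ± 2.14 for Ttf1 and 4.67 ± 2.27 for Baz2b, and the spreads of neighbours overlapped. In NPCs the order was Parp1, Dhx9 (56.6 ± 2.59), Hdac1 (32.6 ± 1.61), Smarca5 (23.6 ± 0.535), Baz2a (18.2 ± 0.628), Kdm2a (17.3 ± 0.802), Baz2b (9.05 ± 0.278), Ttf1 (6.38 ± 0.308) and Sirt7 (3.21 ± 0.0765). Only Baz2a and Kdm2a were neighbours with overlapping samples there, between 17.6 and 18.8 and between 16.8 and 18.3. The subunits of NoRC thus changed places: Baz2a was above Smarca5 in ESC replicates 1 and 2 and below it in ESC replicate 3 and in every NPC sample. ESC and NPC values come from separate tables. Levels of different genes also depend on the length chosen. Summed exon length exceeds the longest transcript unevenly, with 9.60 against 4.62 kb for Dhx9 and 5.29 against 3.87 kb for Parp1. The order of the 9 genes is therefore given for summed exon length only, and the SD does not cover that choice.

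Ratios of partners or paralogs within a sample were compared for 7 pairs with a two-sided exact permutation test, whose smallest possible p with 3 against 3 samples is 0.1, so that no pair could pass a threshold of 0.05. Ratios in each sample are given on the exon scale, and the tested difference is that of log2(RPKM + 1), which is smaller where a gene has low RPKM. The ratio of Baz2a to Baz2b was 10.1, 11.7 and 9.12 in ESCs and 1.88, 2.08 and 2.09 in NPCs. All ESC samples, replicate 3 included, were above all NPC samples. The log2 difference of NPCs minus ESCs was -1.38 on log2(RPKM + 1) (exact permutation p = 0.1, 0.14 adjusted over 7 pairs), -1.82 without ESC replicate 3 and -2.35 on the exon scale. Smarca5 over its ISWI paralog Smarca1 was 26.4, 23.7 and 29.1 in ESCs and 2.16, 2.299 and 2.38 in NPCs. The groups did not overlap, and the difference was -1.22 on log2(RPKM + 1), -1.25 without ESC replicate 3 and -3.53 on the exon scale. Hdac1 over Hdac2 was 1.39, 1.51 and 1.13 in ESCs and 0.654, 0.602 and 0.602 in NPCs, with differences of -0.95, -1.06 without ESC replicate 3 and -1.11 on the exon scale. Hdac1 thus had the higher exon-scaled level of the 2 deacetylases in each ESC sample and the lower in each NPC sample. Parp1 over Parp2 was 8.89, 9.95 and 6.13 in ESCs and 4.89, 4.56 and 4.73 in NPCs, with differences of -0.75, -0.94 without ESC replicate 3 and -0.79 on the exon scale. Kdm2a over Kdm2b was 1.21, 1.18 and 0.957 in ESCs and 2.71, 2.38 and 2.297 in NPCs, with differences of 0.81, 0.69 without ESC replicate 3 and 1.15 on the exon scale. These 4 pairs also reached the smallest exact permutation p of 0.1. The ratio of Smarca5 to Baz2a was 0.625, 0.557 and 1.82 in ESCs and 1.38, 1.27 and 1.23 in NPCs, with ESC replicate 3 above all other samples (difference 0.57, exact permutation p = 0.4), and its difference was 1.06 without that library. Sirt7 over Sirt1 was 0.279, 0.290 and 0.457 in ESCs and 0.431, 0.453 and 0.480 in NPCs, where ESC replicate 3 lay among the NPC samples. Its difference was 0.02 on log2(RPKM + 1) (exact permutation p = 1.0), 0.16 without ESC replicate 3, 0.35 with a pseudocount of 0.1 and 0.45 on the exon scale (exact permutation p = 0.3).

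Other genes of the pathway were read from 4 lists by their counts, beside the shares of all tested genes. Of these, 36.9% were higher and 33.3% lower, and 43.9% and 44.0% without ESC replicate 3. In recovered reads the shares were 45.8% higher and 28.1% lower, and 51.6% and 36.6% without ESC replicate 3. They were 39.0% and 42.3% with the length trend removed. Among 8 relatives of ISWI and BAZ proteins, 5 were tested, 2 were higher in NPCs and 0 were lower (4 and 0 without ESC replicate 3), with a median log2 fold change of 0.41 beside 0.02 for all tested genes (0.30 beside -0.0016 without that library). In recovered reads 4 of 8 were higher and 0 lower, 6 and 2 without ESC replicate 3, and 3 and 3 with the length trend removed (median -0.10). The direction of this list thus depended on the setting. Baz1b, a partner of SNF2H in another remodeling complex, had the largest called difference (log2 fold change 0.77, limma adjusted p = 0.0251). Without ESC replicate 3 it was 0.49, below Pole3 with 0.65, and with the length trend removed it was -0.19 and not called (limma adjusted p = 0.0949). Rsf1, the other gene that was higher, was lower with the length trend removed (-0.56, limma adjusted p = 0.00409). It had 0.989, 0.863 and 0.435 RPKM in ESCs and 1.42, 1.31 and 1.25 RPKM in NPCs. Rsf1 thus passed the RPKM filter through the NPC samples alone, so that its call on RPKM is a description. Smarca1 did not pass the RPKM filter and went from 0.111, 0.112 and 0.0870 to 0.820, 0.743 and 0.711 RPKM. It was higher in recovered reads (log2 fold change 2.88, 2.76 without ESC replicate 3) and with the length trend removed (2.09).

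Of 11 co-repressors and modifiers linked to NoRC, 1 was higher and 4 were lower, where 36.9% of all tested genes were higher and 33.3% lower. Without ESC replicate 3, 3 were higher and 6 lower, against 43.9% and 44.0%. Over all samples the share of lower genes was thus near that of all genes, and the share of higher genes was smaller. Dnmt3a, Dnmt3b and Sirt1 each passed the RPKM filter through the group with the higher values alone, so that these counts are descriptions. The median of the list was -0.11, and -0.29 without ESC replicate 3, and the counts in recovered reads were the same. With the length trend removed, 1 was higher and 7 lower, against 39.0% and 42.3% of all genes. The median was then -0.94, beside -0.08 for all genes. The 3 DNA methyltransferases differed from each other. Dnmt3a rose from 0.172, 0.187 and 0.117 to 5.45, 5.32 and 5.02 RPKM (log2 fold change 2.43, 2.41 without ESC replicate 3), and Dnmt3b fell from 4.03, 4.35 and 2.78 to 0.537, 0.557 and 0.578 RPKM (log2 fold change -1.58, and -1.74). Dnmt1 was not called over all samples (-0.11, limma adjusted p = 0.727), and was lower without ESC replicate 3 (-0.43) and with the length trend removed (-1.14). The other 3 that were lower were Sap30, Sirt1 and Sin3b. Hdac2 was not called with (log2 fold change -0.10, limma adjusted p = 0.405) or without ESC replicate 3 (-0.016, adjusted p = 0.766), but was lower with the length trend removed (-0.46, adjusted p = 0.0238). Parp2 was called in none of these settings, with a log2 fold change of -0.03 (limma adjusted p = 0.718), and -0.0067 without ESC replicate 3.

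Of 7 other repressors of rRNA genes, 5 were tested, 2 were higher and 1 was lower (3 and 1 without ESC replicate 3), with a median of 0.02, and 0.22 without that library. Over all tested genes 36.9% were higher and 33.3% lower, and 43.9% and 44.0% without ESC replicate 3. In recovered reads 3 of 7 were higher and 1 lower, 4 and 1 without ESC replicate 3, and 2 and 3 with the length trend removed. The shares of all genes were then 45.8% and 28.1%, 51.6% and 36.6%, and 39.0% and 42.3%. With so few genes, the counts of this list are descriptions. Suv39h1, which methylates histone H3 at lysine 9, rose most (log2 fold change 1.53, 1.49 without ESC replicate 3, and 1.75 in reads with the length trend removed). Chd4, the other gene that was higher (0.72, and 0.49 without ESC replicate 3), was lower with the length trend removed (-0.39, limma adjusted p = 0.0180). Rrp8 was lower with and without ESC replicate 3 (-0.55 and -0.64). Kdm2b, not tested on RPKM, was not called in recovered reads (log2 fold change 0.35, limma adjusted p = 0.364, and -0.056 without ESC replicate 3), and was lower with the length trend removed (-0.54, adjusted p = 0.0149).

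Of 5 chromatin activators of rRNA genes, 3 were tested, 1 was higher and 2 were lower, with and without ESC replicate 3, and the median was -0.87, and -1.10 without that library. Over all tested genes 36.9% were higher and 33.3% lower, and 43.9% and 44.0% without ESC replicate 3. In recovered reads, with all 5 tested, 2 were higher and 2 lower (median 0.27 beside 0.38 for all genes), 2 were higher and 3 lower without ESC replicate 3 (median -0.35 beside 0.27), and with the length trend removed 0 were higher and 3 lower. The shares of all genes were then 45.8% and 28.1%, 51.6% and 36.6%, and 39.0% and 42.3%. With so few genes, the counts of this list are descriptions. Ubtf, whose product UBF keeps active rRNA genes open, went from 25.0, 26.4 and 23.2 to 10.7, 10.7 and 9.84 RPKM (log2 fold change -1.18, limma adjusted p = 4.99e-05, and -1.23 without ESC replicate 3), and Myo1c was also lower. Ehmt2 was higher (0.80, and 0.82 without ESC replicate 3), but was not called with the length trend removed (0.30, limma adjusted p = 0.101).

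The pattern of Baz2a over the 6 samples was most like that of Pitpnb, Utp20, Eaf1, Nfe2l1 and Adam19, with Pearson correlations of log2(RPKM + 1) of 0.999, 0.999, 0.999, 0.998 and 0.998 over 6 samples from 2 separately normalized tables. In each of them ESC replicates 1 and 2 were high and ESC replicate 3 was close to NPCs. Utp20, for instance, had 3.93, 3.82 and 1.54 RPKM in ESCs and 1.38, 1.43 and 1.41 RPKM in NPCs.

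The positions of the 9 genes were set against NADs, domains that the authors called from both Nucleolar-DamID experiments of a cell type, with 1 score per domain and no replicate values. The authors mapped them at a resolution of 100 kb. Ends of NADs and shorter distances are therefore coarse, and equal ends can follow from shared windows. Smarca5, Baz2b, Dhx9 and Kdm2a lay in NADs of ESCs, 4 of 9 genes beside 27.1% of 21402 genes with a position on the same chromosomes, and the same 4 lay in NADs of NPCs, beside 21.6%. Smarca5 (chr8:80698507-80739497 of GRCm38, minus strand) was within a NAD of 1798 kb in ESCs (chr8:80300281-82098716, score 0.0171, rank 1635 of 1769) and within one of 9600.1 kb in NPCs (chr8:74099802-83699890, score 0.0837, rank 117 of 1447). Kdm2a (chr19:4314419-4398285, minus strand) lay in a NAD of 101 kb in ESCs (score 0.0735, rank 94) and in one of 98.1 kb in NPCs (score 0.0713, rank 198). Dhx9 (chr1:153455758-153487660, minus strand) and Baz2b (chr2:59899363-60209839, minus strand) were each in a NAD with the same ends in both cell types, chr1:153400818-153499554 and chr2:59901077-60300076, the latter over 99.4% of the gene body. Baz2a (chr10:128091577-128129303, plus strand) was outside NADs, 592 kb from the nearest in ESCs and 671 kb in NPCs. Parp1, Hdac1 and Sirt7 were also outside in both cell types, and Ttf1 was outside but 12.5 kb from a NAD of ESCs, against 2260.4 kb in NPCs. Kdm2a and Baz2b, the genes with higher RPKM in NPCs, and Smarca5 and Dhx9 thus shared a position in NADs of both cell types, and no gene of the 9 entered or left them between the lists. By the transcription start alone the same 4 were in NADs of both lists (23.6% and 18.9% of all genes), with 100 kb added on each side 5 in ESCs, Ttf1 included, and 4 in NPCs (39.8% and 32.2%), and with NADs of lower scores than the median left out 3 in ESCs, without Smarca5, and 4 in NPCs (16.5% and 12.3%).

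Promoters were searched in RefSeq windows of GRCm38.p6 from 250 bases before to 50 after the start, which matched 7 of the 9 genes (all but Hdac1 and Kdm2a). On either strand, the GC box GGGCGG was in 5 of 7 windows (35.7% of 32851 promoters), the CCAAT box CCAAT in 2 (37.4%), the E-box CACGTG in 1 (7.15%), and the octamer ATGCAAAT (1.74%) and a motif of NRF1 (0.971%) in 0. The upstream stretches of Parp1 (chr1:180568641-180568890, plus strand) and Smarca5 (chr8:80739498-80739709, minus strand) are shown as 2 examples from 4 matched genes that were lower in NPCs with every ESC sample above every NPC sample, of which Baz2a and Sirt7 are the others. Capitals mark the GC box, read as CCGCCC on the opposite strand, and the E-box, which do not overlap.
Parp1: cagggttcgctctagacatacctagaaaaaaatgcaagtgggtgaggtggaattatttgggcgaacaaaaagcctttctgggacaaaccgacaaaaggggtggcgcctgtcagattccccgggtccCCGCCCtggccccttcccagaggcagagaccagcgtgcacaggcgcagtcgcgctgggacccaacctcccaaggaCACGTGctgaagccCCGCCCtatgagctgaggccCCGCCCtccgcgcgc
Smarca5: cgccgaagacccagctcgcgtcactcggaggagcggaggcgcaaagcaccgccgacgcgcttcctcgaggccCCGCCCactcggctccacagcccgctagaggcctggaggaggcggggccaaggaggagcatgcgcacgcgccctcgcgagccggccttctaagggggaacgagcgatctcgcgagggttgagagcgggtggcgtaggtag
The stretch of Parp1 holds 3 GC boxes and 1 E-box in 250 bases with 61.6% G and C, and that of Smarca5 holds 1 GC box in 212 bases with 71.2% G and C.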

How the data were processed

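RNAseq was measured in 3 ESC and 3 NPC samples, with groups and numbering as the titles of the samples give them. The other 18 samples were not used here, except through the NAD lists. The deposited RNAseq tables hold RPKM, which the authors computed per gene after removing rRNA reads, trimming and aligning single reads of 100 bases to mm10; the study's methods name STAR and a pipeline of their own, the submitters' processing notes name Bowtie2 2.3.4.3 and Subread 1.4.6-p4, and labels and methods also name different versions of the library kit. Which annotation was used, whether strand counted and how multi-mapping reads were handled is not given in the sources used here. The deposited NAD lists hold a score, made by the authors from H2B-Dam-NoLS relative to H2B-Dam over 2 experiments and used here only to rank NADs within a list.

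The tables had 22064 lines. For 153 symbols on several lines the line with the highest mean was kept, and 21597 symbols matched GENCODE M21. Multiplied by gene body length, low RPKM were whole multiples of 1 read, which gave the reads and depths reported, although the methods speak of exon coverage. log2(RPKM + 1) was tested with limma 3.58.1 under R 4.3.3, using an intensity trend in the moderated variance and Benjamini-Hochberg adjustment over all tested genes and a threshold of 0.05. As an alternative, limma voom was run on recovered reads of 14657 genes with at least 10 reads in at least 3 samples. Ratios were compared by exact permutation of the samples, two-sided. Pairs of replicates differed by more than counting noise, with mean chi-square values per gene of 3.62 to 416 (medians 1.12 to 63.8), so that no pair was counted as 1 library, which does not tell technical from biological replicates. Python 3.11.15, numpy 2.4.6, pandas 2.3.3 and matplotlib 3.10.9 were used for the rest.

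Members and lists were chosen with earlier results of these data known. Named genes were all 9 members, in each pathway list the called gene with the largest rise and fall and the paralogs of the ratios, the most abundant gene of each marker list in exon-scaled RPKM and the 5 genes most correlated with Baz2a. Pax6, Hes5, Dcx, Rbfox3, Elavl3, Map2, Neurod1, Foxf1, Snai2, Sox10, Tfap2a, Afp, Ttr, Rsf1, Pole3, Dnmt1, Sap30, Sirt1, Sin3b, Chd4 and Myo1c were named in addition, after their values were seen or as members of small counts. Alternatives were other pseudocounts, filters, scalings, each sample left out, a block for the replicate number, other rules of NAD overlap and, chosen after seeing the data, those on recovered reads and those without filter and ESC replicate 3.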

Additional observations from a re-analysis of the deposited data

How the results depend on the processing

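Hdac1 kept its direction and its call under all 28 alternatives, Smarca5 and Sirt7 under 27, Parp1 under 26 and Kdm2a under 25 of 28, while Baz2a, Ttf1 and Dhx9 were called under 10, 8 and 5. Baz2b, tested on RPKM without the filter and on recovered reads, was called higher under 6 of 12 alternatives and lower under 1. Dhx9 turned to 0.24 with a common sum of RPKM, 0.057 with quantile normalization, and 0.047 and 0.060 without ESC replicate 1 on RPKM and on recovered reads, and was lowest on RPKM without ESC replicate 3 (-0.58). Baz2b turned to -0.15 and to -0.26 with the length trend removed, over all samples and without ESC replicate 3. The number of genes called, 5500 over all samples, was 11454 without the filter and 13328 without filter and ESC replicate 3. On recovered reads, chosen after seeing the data, it was 10842, 11104 with median ratio scaling, 11922 with the length trend removed, 12978 with that and without ESC replicate 3, and, with 1 sample left out, 10521, 10364 and 12923 without ESC replicates 1, 2 and 3 and 9567, 9534 and 9495 without NPC replicates 1, 2 and 3. More genes were tested without the filter (18360) and on recovered reads (14657) than on filtered RPKM (7835). On filtered RPKM with 1 sample left out, the number of genes called was 4616 to 6884. The number of members called, 5 of 8 tested, was 2 of 8 with a common sum, where 5107 of 7835 genes were called. With 1 sample left out it was 5 to 8 on RPKM and 4 to 9 on recovered reads. It was 8 with the length trend removed and without ESC replicate 3, and 9 without filter and that library. The highest counts of members in these ranges came without ESC replicate 3. There, 87.9% of all tested genes were called on RPKM and 88.2% on recovered reads, and the cause was not tested. A common sum of RPKM moved the split of calls from 2894 higher and 2606 lower to 3520 and 1587. The ratio of Sirt7 to Sirt1 turned to -0.054 and -0.048 without ESC replicate 1 or 2 and to -0.0022 without NPC replicate 3, and was 0.16 at the highest with 1 sample left out. Members in NADs numbered 3 to 5 in ESCs and 4 in NPCs under each rule of overlap.

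Replicate numbers are shared by both groups. Deviations from the group means correlated by 0.11, -0.08 and 0.03 for replicates 1, 2 and 3, which gives no sign that the numbers pair the samples. These values cannot exclude pairing, since deviations in ESCs come mostly from replicate 3. It differed from replicates 1 and 2 by medians of 0.52 and 0.50 on the log2 scale, against 0.08 between those 2. With the replicate number as a block, 5214 genes and 6 members were called (Baz2a with adjusted p = 0.0420 in limma), and 10321 genes and 7 members on recovered reads. With 3 samples per group, the exact test of ratios cannot pass the threshold.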
